A study of Arabidopsis thaliana with 4 samples.

Results

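The xyloglucan endotransglucosylase/hydrolase (XTH) family of Arabidopsis thaliana comprises the genes XTH1 to XTH33, and their read counts were taken by locus from 4 whole-seedling RNA libraries. All 33 loci were among the 33518 loci of the count tables. The libraries came from 5-day-old seedlings grown under constant light on MS medium. Col-0, the wild type, gave 2 libraries. The other 2 came from HBI1-Ox, the overexpressor, labelled 35S::HBI1-YFP. In it the basic helix-loop-helix factor HBI1, as a fusion with yellow fluorescent protein, is driven by 35S, a viral promoter active in most tissues. The labels name no treatment for either group. A single overexpressing genotype was sequenced and its number of independent transformants is not given, so raised HBI1 and other differences of that line cannot be told apart. The comparison asks how the family's transcripts differ when HBI1 is overexpressed, in a study of growth and immunity.

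Xyloglucan is the main hemicellulose of the primary wall in dicots and coats or bridges cellulose microfibrils. XTH enzymes cut a xyloglucan chain and rejoin it to another chain (endotransglucosylase activity), and some members instead cut it with water (hydrolase activity), so they act where walls are built, loosened or reshaped during growth. The family is divided by sequence into group I, group II and a group III that has an A and a B branch. HBI1 belongs to a set of growth-promoting factors that act downstream of brassinosteroid and gibberellin, hormones of cell elongation.

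Depth ran from 10785178 to 19647745 reads on genes per library, of which XTH genes held 0.258% and 0.244% in the wild type and 0.277% and 0.270% in the overexpressor. HBI1 itself, the overexpressed gene, stood at 99.3 and 84.6 CPM in the wild type and at 1567 and 1509 CPM in the overexpressor, where CPM is the read count scaled to a common library size after TMM factors (trimmed mean of M values). The wild-type libraries differed from each other more than the overexpressor libraries did. Over genes with at least 20 reads in a pair, the chi-square of the counts was 8.04 per gene between the wild-type libraries and 1.72 between the overexpressor libraries. Over the XTH genes it was 22.2 and 1.85. The statistic scales by total reads on genes and grows with read number. The XTH values are therefore not set against those over all genes. At an adjusted p under 0.05 of that test, which covers counting error only, 2305 of 20074 genes and 9 of 29 XTH genes differed between the wild-type libraries, the latter being XTH6, XTH7, XTH9, XTH14, XTH16, XTH22, XTH23, XTH24 and XTH27. Between the overexpressor libraries 64 of 20127 genes and 0 of 29 XTH genes differed. No label says that the libraries of 1 group are separate cultures, so p-values reflect spread among these libraries alone, and that spread may be technical. The family's counts and the called XTH genes are therefore also given with the overexpressor libraries summed into 1 sample, called the summed overexpressor. All spread in that fit comes from the wild-type libraries, and the lone sample is assumed to vary like them, so a pass or a miss there is uncertain. It moved the log2 change of the 14 called XTH genes by at most 0.0137, so a call lost there is not a smaller change.

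Of the 33 XTH genes, 10 were higher and 4 lower in the overexpressor, 15 did not pass the test and 4 had too few reads to be tested (edgeR's quasi-likelihood test, adjusted p under 0.05 by the Benjamini-Hochberg method over all 20320 genes tested). Across all genes tested, 8.33% were higher, 7.15% lower and 15.5% changed in either direction, against 48.3% of the 29 tested XTH genes. The median log2 change was 0.25 over the tested XTH genes and -0.01 over all genes. The libraries of the groups did not overlap for 22 tested XTH genes, 15 of them above the wild type and 7 below it. Over all tested genes 29.7% lay above without overlap and 31% below. With the summed overexpressor, 5 XTH genes were higher and none lower, where 1.48% of all genes were higher and 1.31% lower. Those 5 were XTH17, XTH18, XTH19, XTH25 and XTH30, and they were also higher in each of the other 11 alternative settings. The 4 genes called lower on the separate libraries had log2 changes between -1.06 and -0.42 with the summed overexpressor. DESeq2 on the separate libraries called 10 higher and 4 lower, where 1150 of all 20320 tested genes were higher and 844 lower. Without 1 overexpressor library, all spread came from the wild-type pair, and without 1 wild-type library it came from the overexpressor pair. Counts of calls in those fits are no result about the family. Scaling by total counts gave 10 higher and 6 lower. In that setting 995 of all 20320 tested genes were higher and 3494 lower.

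**Figure D1:**
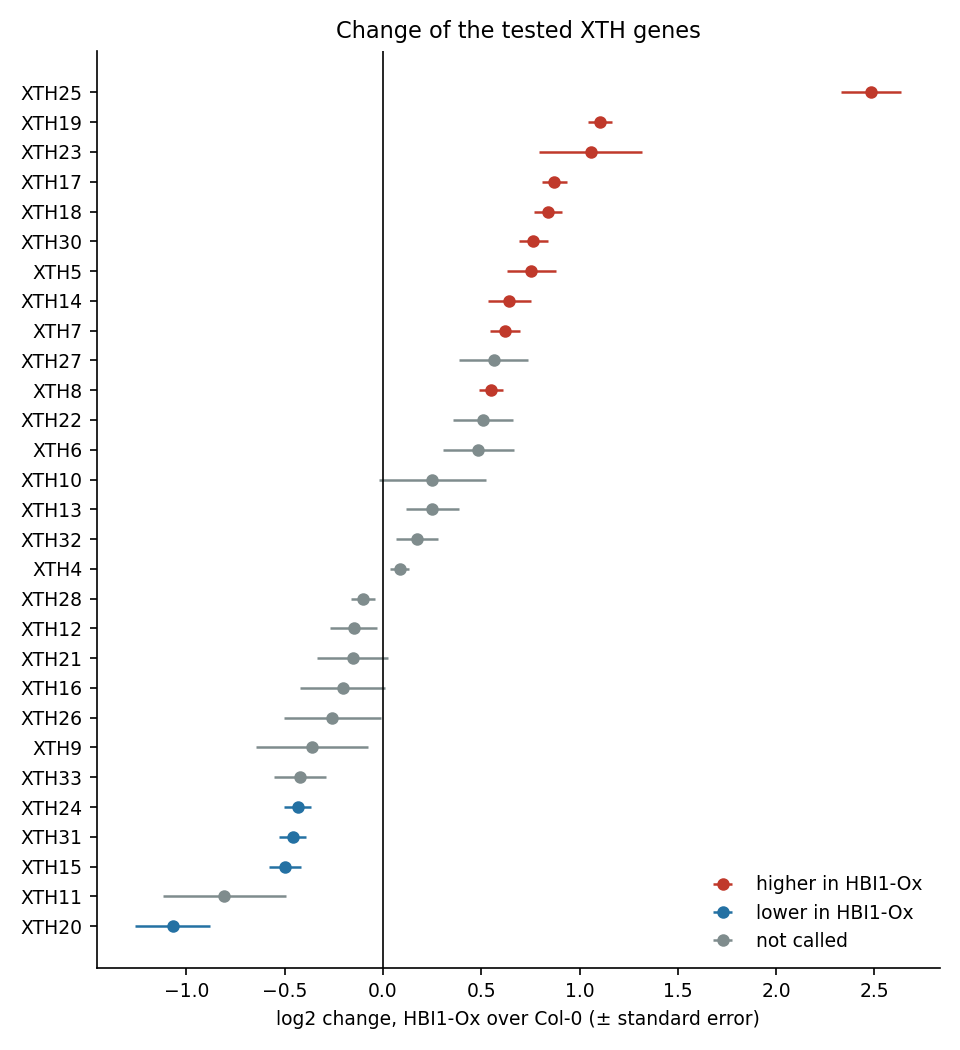
log2 change (overexpressor over wild type, horizontal axis) of the 29 tested XTH genes, with bars of 1 standard error. Points are red for the 10 genes higher in the overexpressor, blue for the 4 lower and grey for the 15 not called; XTH25 stands apart at 2.48 and XTH20 is lowest at -1.07.

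Almost every member carries the catalytic signature of the family, a stretch in which acidic residues alternate with others. The 15 coding bases of this stretch were read from the TAIR10.1 genome for 3 members that rose or fell most and for a member of each group III branch, to show what the proteins share. Capitals mark the codons of the acidic residues.
XTH25 (chr5:23305806-23305820, minus strand): GAAatcGATttcGAG
XTH19 (chr4:14829570-14829584, minus strand): GAGattGATttcGAG
XTH20 (chr5:19482568-19482582, plus strand): GAAataGATtttGAG
XTH30 (chr1:11576263-11576277, plus strand): GAGttaGACataGAG
XTH31 (chr3:16447891-16447905, minus strand): GAGgtcGATatcGAG
The stretch was found in 32 of the 33 translated coding sequences, and not in XTH11. It was present alike in members that rose, fell and did not pass.

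Levels within the family spanned a wide range. Per kb of annotated exon, which allows genes to be compared, XTH4 (AT2G06850, also known as EXGT-A1) was the highest in every library, with a mean of 576 CPM per kb in the wild type and 610 in the overexpressor. It held 37.4% and 40.7% of all XTH reads in the wild-type libraries and 34.1% and 34.3% in the overexpressor libraries. In the wild type the next levels were those of XTH7 (200 CPM per kb), XTH24 (165), XTH18 (76.0), XTH6 (65.1), XTH17 (58.2), XTH16 (56.5), XTH27 (53.8) and XTH9 (48.9). The order from XTH6 to XTH9 is not resolved, because their wild-type libraries overlapped, and XTH6 also overlapped XTH18. The list has no clear end either. For example, the wild-type libraries of XTH31 and XTH14, with means of 46.6 and 44.9 CPM per kb, lay between those of XTH9. In the overexpressor the order after XTH4 was XTH7 (307 CPM per kb), XTH18 (136), XTH24 (122) and XTH17 (107). XTH24 thus stood above XTH18 in both wild-type libraries and below it in both overexpressor libraries. Summed over the family, the level was 2492 and 2281 CPM in the wild type and 2926 and 2840 CPM in the overexpressor, and the libraries did not overlap, with total-count scaling as well. In whole seedlings, fewer cells of a type and less RNA per cell cannot be told apart.

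**Figure D2:**
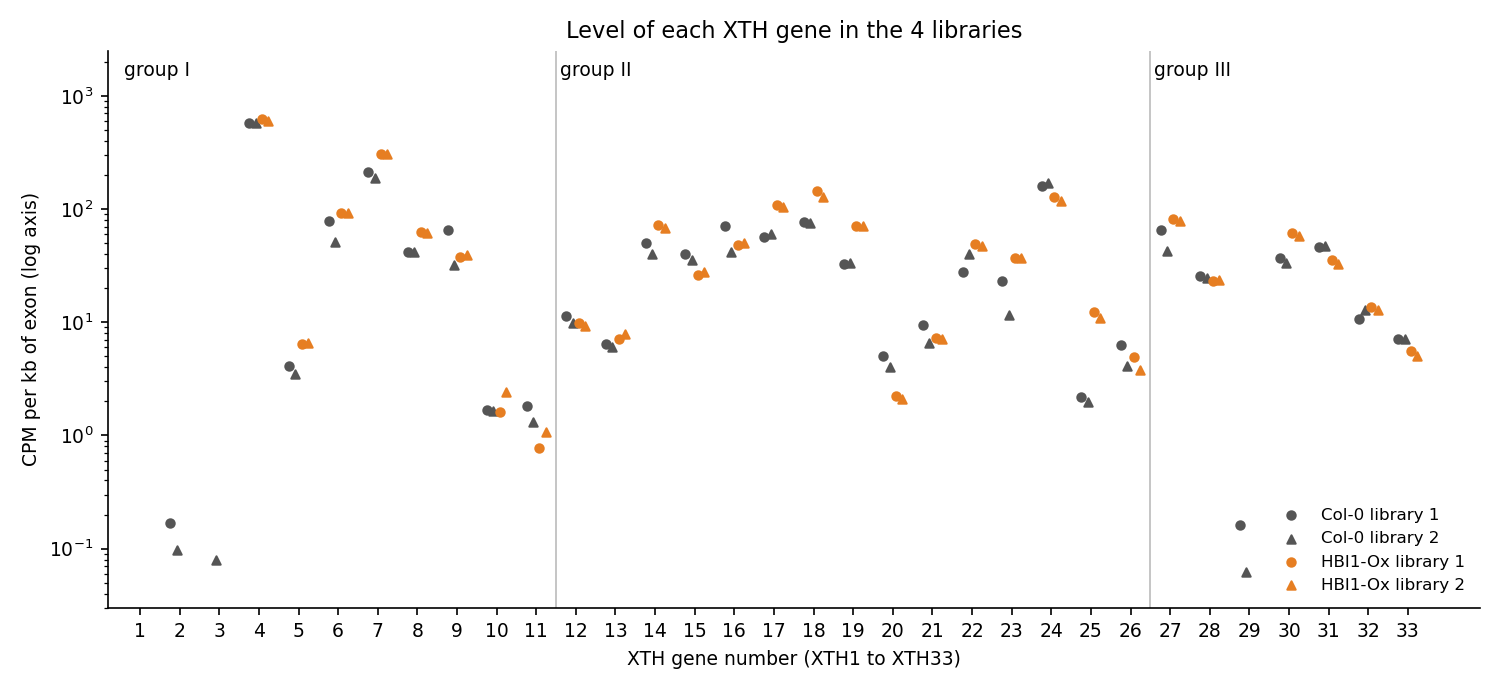
Level of each XTH gene (vertical log axis, CPM per kb of exon) in the 4 libraries, by gene number, with grey symbols for the wild type and orange for the overexpressor; a library with no read is not drawn. XTH4 is the highest in all 4 libraries, and the orange symbols of XTH25 lie far above the grey ones.

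Group I had 11 members, of which 3 were higher, none lower, 5 not called and 3 not tested. The log2 changes of the tested members lay between -0.81 and 0.76. Over all tested genes, 8.33% were higher and 7.15% lower. The median log2 change of group I was 0.37 over the 8 tested. XTH7 (AT4G37800), the second most expressed member, had 275 and 240 CPM in the wild type and 397 and 395 CPM in the overexpressor. On the log2 scale it rose by 0.62 ± 0.08 (± standard error, also at every later log2 change; adjusted p = 0.00369). XTH8 (AT1G11545) had 51.2 and 51.3 CPM in the wild type against 75.8 and 74.2 CPM in the overexpressor and rose by 0.55 ± 0.06 (adjusted p = 0.00258). Both genes had libraries that stood apart by group. The spread within groups was small for XTH8, whereas the wild-type libraries of XTH7 differed by more than counting error. XTH5 (AT5G13870), the closest relative of XTH4 with 75.8% identical residues, was far lower in level, at 7.90 and 6.77 CPM in the wild type and 12.4 and 12.5 CPM in the overexpressor. It rose by 0.76 ± 0.12 (adjusted p = 0.0108). None of these 3 passed with the summed overexpressor (adjusted p = 0.0716, 0.0597 and 0.103 for XTH7, XTH8 and XTH5, edgeR).

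XTH4 itself was not called. It had 931 and 928 CPM in the wild type and 998 and 973 CPM in the overexpressor, a log2 change of 0.08 ± 0.05 that did not pass (adjusted p = 0.31). Scaling by total counts turned its direction, to -0.067, in a setting that moved the median of all genes from -0.012 to -0.162. The log2 change of XTH4 was 0.097 without wild-type library 1 and 0.083 without wild-type library 2. XTH6 (AT5G65730), the closest relative of XTH7, had 116 and 75.3 CPM in the wild type and 134 CPM in each overexpressor library. The overexpressor libraries were both above the wild type, but the wild-type spread was large and the log2 change of 0.49 ± 0.18 did not pass (adjusted p = 0.125). It was 0.85 without wild-type library 1 and 0.21 without wild-type library 2, and XTH6 was called higher in both settings, where the spread comes from the overexpressor pair alone. XTH9 (AT4G03210), which is known for a role in internode elongation, had 99.9 and 49.3 CPM in the wild type and 57.0 and 59.5 CPM in the overexpressor, so both overexpressor values fell between those of the wild type. Its log2 change of -0.36 ± 0.28 did not pass (adjusted p = 0.442). It was 0.25 without wild-type library 1 and -0.78 without wild-type library 2. XTH10 (AT2G14620) and XTH11 (AT3G48580) were low, at 18 to 47 reads per library, with log2 changes of 0.25 and -0.81 that did not pass (adjusted p = 0.582 and 0.141). XTH10 turned to -0.040 without overexpressor library 2. XTH11 was at -0.53 without wild-type library 1 and at -1.01 without wild-type library 2.

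The untested members were nearly silent. XTH1 (AT4G13080) had no read in any library, XTH2 (AT4G13090) had 2 and 1 reads in the wild type, and XTH3 (AT3G25050), whose enzyme can also use cellulose as a substrate, had 1 read in wild-type library 2. XTH29 (AT4G18990) of group III-B had 3 and 1 reads in the wild type. None of the 4 had a read in the overexpressor, where a count of 0 allows up to 3 reads per library, so no difference was detectable at this depth.

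Group II, the largest branch, had 15 members, all tested, of which 6 were higher, 3 lower and 6 not called. These counts stand beside 8.33% of all tested genes higher and 7.15% lower. The median log2 change of group II was 0.25. Group II held the largest rise and the largest fall of the family. XTH25 (AT5G57550, formerly XTR3; chromosome 5, 23304782 to 23306440, minus strand, TAIR10.1) had 35 and 27 reads in the wild type and 272 and 185 reads in the overexpressor. This is 2.58 and 2.34 CPM against 14.6 and 13.0 CPM, a rise of 2.48 ± 0.15 on the log2 scale, or 5.59-fold (adjusted p = 0.00034). Per kb, only XTH10 and XTH11 were lower than XTH25 among the tested members in the wild type, whereas XTH25 stood above XTH12, XTH13, XTH20, XTH21 and XTH26 in both overexpressor libraries. It stayed higher with the summed overexpressor (adjusted p = 0.0104, edgeR), and its log2 change lay between 2.33 and 2.58 over the 12 alternatives.

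XTH17, XTH18, XTH19 and XTH20 form a clade of close relatives that are expressed mainly in roots, and they did not move together. XTH17 (AT1G65310; chromosome 1, 24257054 to 24258506, plus strand) had 70.5 and 74.4 CPM in the wild type and 135 and 130 CPM in the overexpressor. XTH18 (AT4G30280; chromosome 4, 14825757 to 14827211, minus strand) had 97.5 and 94.5 CPM against 181 and 163 CPM. XTH19 (AT4G30290; chromosome 4, 14828712 to 14830224, minus strand) had 43.3 and 44.6 CPM against 95.2 and 93.7 CPM. XTH17 and XTH18 rose by 0.87 ± 0.06 and 0.84 ± 0.07 on the log2 scale, and XTH19 rose 2.15-fold with a standard error of 0.06 on that scale (adjusted p = 0.000597, 0.001 and 0.000255, edgeR). The groups did not overlap for these 3 genes, and they passed with the summed overexpressor (adjusted p = 0.0222, 0.0222 and 0.0142, edgeR). XTH20 (AT5G48070; chromosome 5, 19481897 to 19483527, plus strand) went the other way, with 96 and 65 reads in the wild type and 58 and 42 reads in the overexpressor, which is 7.09 and 5.64 CPM against 3.12 and 2.95 CPM. It fell by 1.07 ± 0.19 on the log2 scale (adjusted p = 0.0141), and did not pass with the summed overexpressor (adjusted p = 0.112, edgeR). Within a library, where scaling plays no part, XTH19 had 6.11 and 7.91 reads per XTH20 read in the wild type and 30.5 and 31.7 in the overexpressor. The corresponding numbers of XTH17 reads per XTH20 read were 9.95 and 13.2 in the wild type and 43.4 and 44.0 in the overexpressor. The ranges of both ratios were far apart by group, although 2 against 2 libraries cannot give an exact p below 0.33. Each ratio sets genes called in opposite directions against each other in the same counts, so it is no separate support.

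The clade's members are alike enough for reads to be shared. XTH17 and XTH18 have 93.3% of aligned residues and 92.2% of coding bases in common, XTH19 and XTH18 91.3% and 88.3%, and XTH20 and XTH17 84.4% and 85.1%. The longest coding stretches without a mismatch were 47 bases for XTH17 and XTH18, 68 for XTH19 and XTH18, and 44 for XTH20 and XTH17. How reads that fit several genes were counted is not given, so the separate values of XTH17, XTH18, XTH19 and XTH20 are uncertain. The values of XTH12 and XTH13, which share 93.0% of residues, carry the same uncertainty.

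XTH17 and XTH18 lie on different chromosomes but share sequence ahead of their annotated starts. The last 130 bases before the start of each gene, read from TAIR10.1, are shown because both genes rose. Capitals mark the stretch that is identical in both.
XTH17 (chr1:24256924-24257053, plus strand): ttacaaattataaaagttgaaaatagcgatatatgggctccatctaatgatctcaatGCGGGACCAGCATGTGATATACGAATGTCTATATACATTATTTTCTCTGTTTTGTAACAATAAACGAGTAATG
XTH18 (chr4:14827212-14827341, minus strand): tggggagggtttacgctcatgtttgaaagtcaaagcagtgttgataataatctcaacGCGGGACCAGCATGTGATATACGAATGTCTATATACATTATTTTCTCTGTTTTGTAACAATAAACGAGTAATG
The identical run was 73 bases long, directly before the start, and went on for 7 bases past it. The next longest run shared by any pair of XTH promoters, taken as the 250 bases before the start, was 14 bases, in XTH25 and XTH30. The run held 1 copy of CATGTG, a form of the E-box (CANNTG) that basic helix-loop-helix factors can bind. Neither the run nor that copy was tested for HBI1 binding.

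The promoter of XTH25 is shown as the member with the largest rise. Capitals mark E-boxes (CANNTG) and a copy of the brassinosteroid response element, searched as CGTGTG or CGTGCG on both strands; the copy here is the complement, CACACG.
XTH25 (chr5:23306441-23306690, minus strand): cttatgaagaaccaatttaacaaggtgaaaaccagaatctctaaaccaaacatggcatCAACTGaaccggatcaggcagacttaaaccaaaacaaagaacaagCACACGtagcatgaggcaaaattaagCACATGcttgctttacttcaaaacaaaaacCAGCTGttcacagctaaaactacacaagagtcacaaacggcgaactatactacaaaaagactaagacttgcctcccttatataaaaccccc
This window held 3 E-boxes and 1 response element. An E-box occurred in 21 of the 33 XTH promoters (63.6%) and in 55.3% of all 27443 promoters of the same length. At least 3 E-boxes were found in XTH25 and XTH26, against 5.69% of all promoters, and XTH26 was not called. The response element occurred in 4 XTH promoters (12.1%), those of XTH2, XTH8, XTH23 and XTH25, against 6.71% of all. The G-box, CACGTG, a form of the E-box, was in none of the 33 XTH windows and in 6.49% of all. These counts describe letters in a window and are no measure of binding.

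The other 2 members of group II that were higher are neighbours. XTH23 (AT4G25810, formerly XTR6) had 32.0 and 15.9 CPM in the wild type and 50.3 and 50.5 CPM in the overexpressor. Both overexpressor libraries were above the wild type, but the wild-type libraries differed from each other by about as much as library 1 differed from the overexpressor. XTH23 rose by 1.06 ± 0.26 on the log2 scale, near the threshold (adjusted p = 0.0413). It did not pass with DESeq2 (adjusted p = 0.178) or with the summed overexpressor (0.212, edgeR), and its log2 change was 1.68 without wild-type library 1 and 0.65 without wild-type library 2. XTH14 (AT4G25820), an enzyme with activity shown in roots, had 58.3 and 46.4 CPM in the wild type and 84.3 and 79.5 CPM in the overexpressor and rose by 0.64 ± 0.11 (adjusted p = 0.0124, and 0.111 with the summed overexpressor, edgeR).

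Besides XTH20, both XTH24 and XTH15 were lower. XTH24 (AT4G30270, also known as MERI5) was the third most expressed member in the wild type, with 194 and 206 CPM, and had 154 and 141 CPM in the overexpressor. It fell by 0.43 ± 0.07 on the log2 scale (adjusted p = 0.00897). XTH15 (AT4G14130, formerly XTR7), known as a shade-induced gene, had 48.3 and 43.0 CPM in the wild type and 31.5 and 33.3 CPM in the overexpressor and fell by 0.50 ± 0.08 (adjusted p = 0.00956). The libraries of both genes were apart by group, but neither passed with the summed overexpressor (adjusted p = 0.128 and 0.114, edgeR). XTH15 overlaps AT4G14120 on the opposite strand, and the strand setting of the counting is not given, so reads of the pair may not be told apart.

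The 6 uncalled members of group II were XTH12, XTH13, XTH16, XTH21, XTH22 and XTH26. XTH22 (AT5G57560), the touch gene TCH4, had 44.4 and 63.4 CPM in the wild type and 78.6 and 74.7 CPM in the overexpressor. Its libraries did not overlap between groups, and its log2 change of 0.51 ± 0.15 missed the threshold (adjusted p = 0.0716) but passed with DESeq2 (0.0277) and limma-voom (0.0498). XTH22 did not pass with the summed overexpressor. Over the 12 alternatives its log2 change ran from 0.29 without wild-type library 1 to 0.79 without wild-type library 2. XTH16 (AT3G23730) had 86.4 and 51.1 CPM in the wild type and 58.3 and 61.5 CPM in the overexpressor, which overlapped. Its log2 change of -0.20 ± 0.22 turned to 0.24 without wild-type library 1 and was -0.53 without wild-type library 2. XTH12 (AT5G57530), XTH13 (AT5G57540), XTH21 (AT2G18800), known for a role in root growth, and XTH26 (AT4G28850), known from root hairs, had log2 changes of -0.15, 0.25, -0.15 and -0.26 (adjusted p = 0.446, 0.265, 0.616 and 0.531, edgeR). All 4 had at most 210 reads in a library. Without wild-type library 1 the log2 changes of XTH21 and XTH26 turned to 0.15 and 0.12, and without wild-type library 2 they were -0.38 and -0.51.

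Group III-B, with 5 members, had 1 higher gene, 3 not called and 1 not tested. Among all tested genes 8.33% were higher and 7.15% lower. XTH30 (AT1G32170; chromosome 1, 11575320 to 11578030, plus strand) had 51.4 and 46.5 CPM in the wild type and 85.8 and 80.7 CPM in the overexpressor. It rose by 0.77 ± 0.08 on the log2 scale (adjusted p = 0.00169) and was the only gene outside group II to pass with the summed overexpressor (adjusted p = 0.0362, edgeR). XTH27 (AT2G01850, also known as EXGT-A3), which is known from tracheary elements, had 100 and 65.9 CPM in the wild type and 126 and 120 CPM in the overexpressor. Both overexpressor libraries were above the wild type, but its log2 change of 0.56 ± 0.18 did not pass (adjusted p = 0.0807). It was 0.91 without wild-type library 1 and 0.30 without wild-type library 2. XTH28 (AT1G14720), which is known from stamen filaments, and XTH33 (AT1G10550), whose protein is anchored in the plasma membrane, did not pass, with log2 changes of -0.10 ± 0.06 and -0.42 ± 0.13 (adjusted p = 0.326 and 0.0831). Both were called lower with total-count scaling (adjusted p = 0.0335 and 0.0284, edgeR), where 3494 of all 20320 tested genes were lower. The log2 change of XTH33 was -0.40 without wild-type library 1 and -0.42 without wild-type library 2.

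Group III-A holds the pair XTH31 and XTH32, whose enzymes have hydrolase activity. XTH31 (AT3G44990) had 64.3 and 65.6 CPM in the wild type and 49.1 and 45.2 CPM in the overexpressor and fell by 0.46 ± 0.07 on the log2 scale (adjusted p = 0.00779, and 0.108 with the summed overexpressor, edgeR). XTH32 (AT2G36870), which shares 66.6% of residues with XTH31, had 20.4 and 24.7 CPM in the wild type and 26.2 and 24.4 CPM in the overexpressor. These overlapped, and its log2 change of 0.17 ± 0.11 did not pass (adjusted p = 0.325, edgeR). The log2 change of XTH32 was 0.05 without wild-type library 1 and 0.32 without wild-type library 2. Summed over its members, III-A was the one group with a lower level in both overexpressor libraries, at 75.4 and 69.6 CPM against 84.7 and 90.3 CPM in the wild type. Group I stood at 1677 and 1653 CPM against 1486 and 1355 CPM, group II at 920 and 875 CPM against 723 and 678 CPM, and III-B at 253 and 242 CPM against 199 and 158 CPM. No group's direction turned with total-count scaling. These sums were not tested, since 2 against 2 libraries cannot give an exact p below 0.33.

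**Figure D3:**
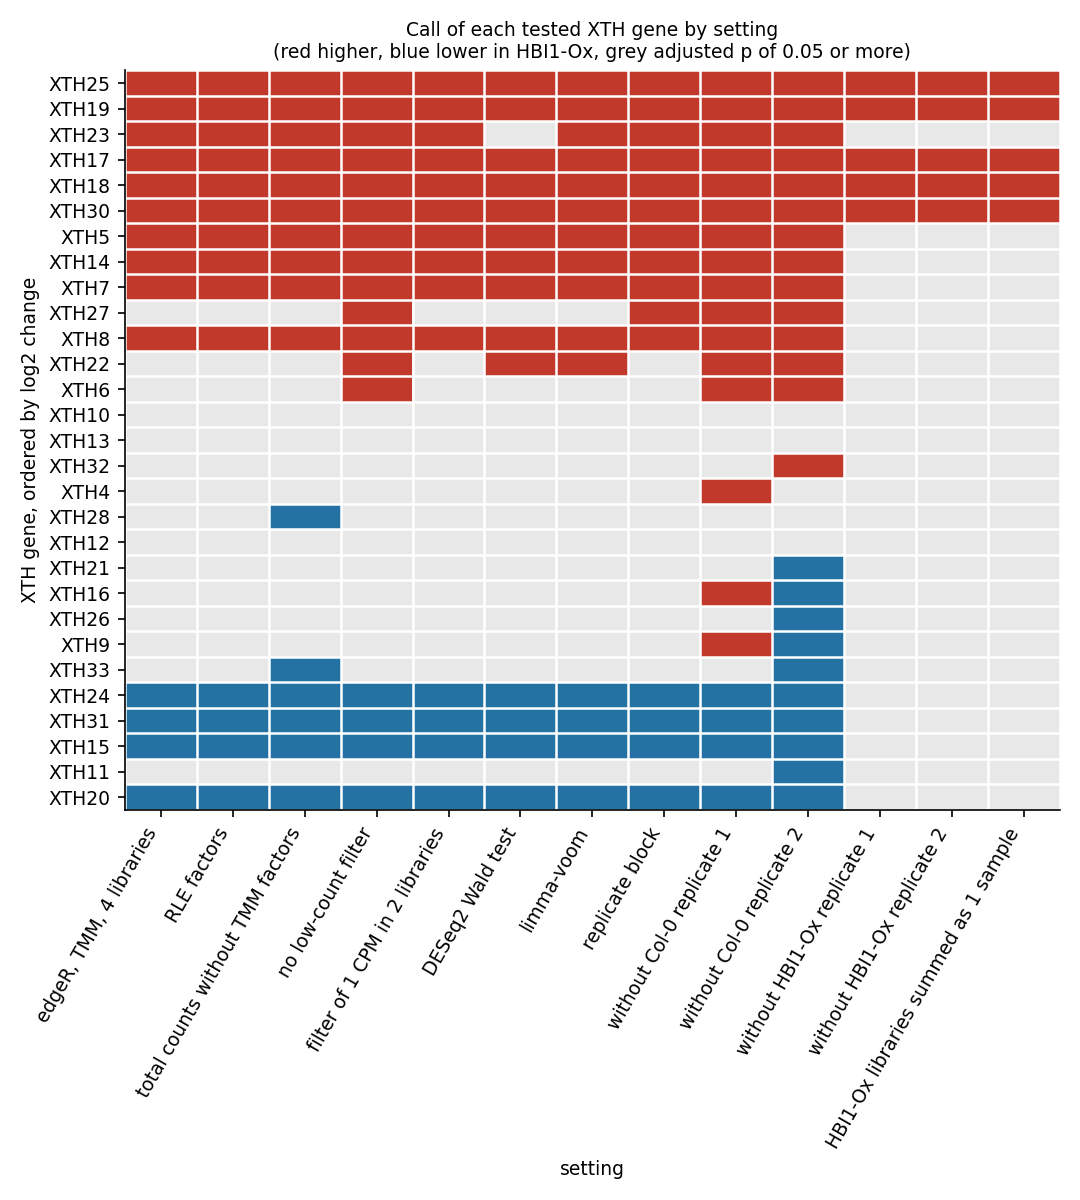
Call of each tested XTH gene (rows, ordered by log2 change) in the fit on 4 libraries (first column) and in the 12 alternative settings (other columns); red is higher, blue lower and grey an adjusted p of 0.05 or more. XTH25, XTH19, XTH17, XTH18 and XTH30 are red in every column, and the blue calls of XTH24, XTH31, XTH15 and XTH20 end in the last 3 columns.

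Several members lie side by side on the same strand and differed in their change. On chromosome 5, XTH13, XTH25 and XTH22 follow each other within gaps of 686 and 565 bp, and XTH12 lies 1 gene away. Only XTH25 was called among these 4. XTH25 had 0.365 and 0.346 reads per XTH13 read in the wild type and 1.86 and 1.49 in the overexpressor, and 0.0581 and 0.0369 reads per XTH22 read in the wild type against 0.186 and 0.174 in the overexpressor. Both ratios were higher in each overexpressor library than in either wild-type library. On chromosome 4, XTH24, XTH18 and XTH19 follow each other within gaps of 5161 and 1500 bp, and the first was lower while the other members were higher. XTH18 had 0.503 and 0.460 reads per XTH24 read in the wild type and 1.17 and 1.15 in the overexpressor. XTH23 and XTH14, also on chromosome 4 and 363 bp apart, were both higher. There were 0.549 and 0.342 XTH23 reads per XTH14 read in the wild type and 0.597 and 0.636 in the overexpressor. All ratios of neighbours use the same counts as the calls, so they are no separate support.

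**Figure D4:**
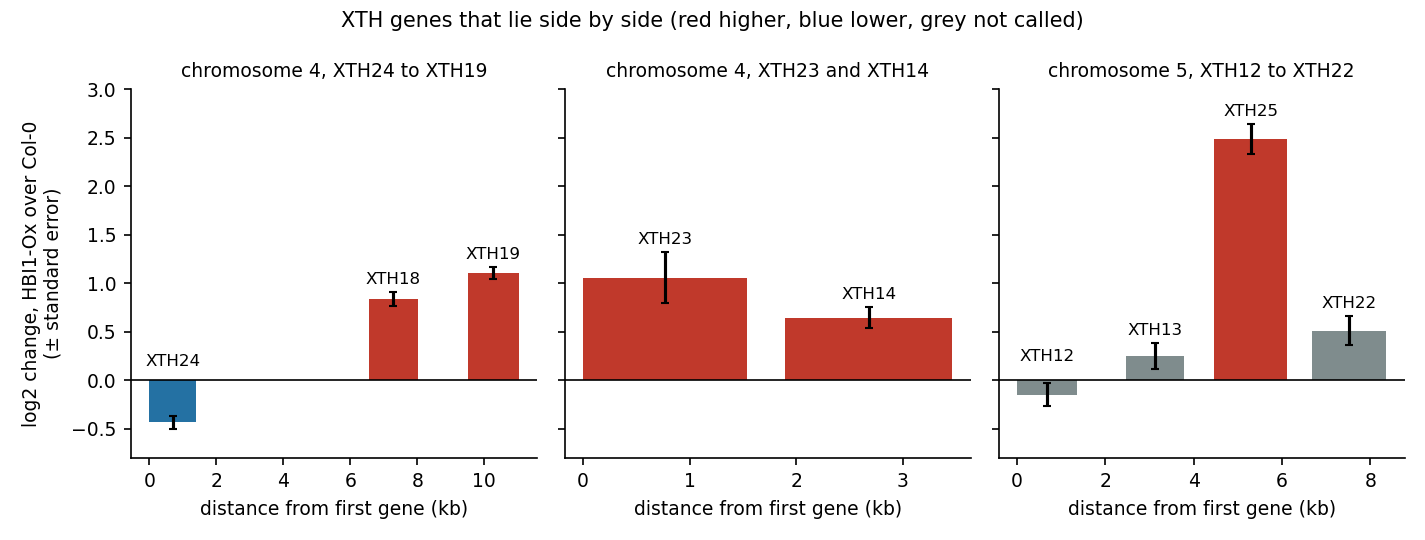
log2 change (vertical axis, bars of 1 standard error) of XTH genes that lie side by side, drawn at their positions along the chromosome as distance in kb from the first gene; bar width is gene length. XTH24 is below 0 beside XTH18 and XTH19 above it, and XTH25 reaches 2.48 between XTH13 and XTH22, which were not called.

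Other genes of the xyloglucan pathway had log2 changes between -0.27 and 0.50. Of 21 genes for synthesis and trimming of the polymer, all tested, 5 were higher, none lower and 16 not called, with a median log2 change of 0.14. That is beside 8.33% of all genes higher and 7.15% lower. At an unadjusted p under 0.05, 9 were higher and 2 lower (edgeR), counts that have no share over all genes beside them. DESeq2 called 3 higher and none lower, where 1150 of all 20320 tested genes were higher and 844 lower. Scaling by total counts gave 1 higher and 2 lower, where 995 of all tested genes were higher and 3494 lower. None was called with the summed overexpressor, where the median log2 change of the 21 genes was 0.14. Counts of calls without 1 library of either group are again no result about these genes. AXY8 (AT4G34260), an alpha-fucosidase that trims side chains, had 69.9 and 71.1 CPM in the wild type and 101 and 98.4 CPM in the overexpressor and rose by 0.50 ± 0.06 on the log2 scale (adjusted p = 0.00327). XYL1 (AT1G68560), an alpha-xylosidase of the apoplast, had 229 and 214 CPM against 274 and 268 CPM and rose by 0.29 ± 0.06 (adjusted p = 0.0241). TBL27, which acetylates xyloglucan, and the galactosyltransferase genes XLT2 and MUR3 rose by 0.39 ± 0.08, 0.30 ± 0.08 and 0.26 ± 0.06 (adjusted p = 0.0213, 0.0477 and 0.0341, edgeR). The 5 uncalled genes with the highest level were CSLC4 and CSLC5, backbone synthases, XXT2 and XXT5, xylosyltransferases, and AT5G20950, a glucosidase. Their log2 changes were 0.34, 0.10, 0.17, 0.14 and -0.27 (adjusted p = 0.0541, 0.43, 0.11, 0.2 and 0.108, edgeR). XXT5 overlaps a gene on the opposite strand.

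XTH22 was one of the original touch genes, so the others were read beside it. TCH3, a calmodulin-like gene, had 124 and 255 CPM in the wild type and 71.4 and 69.9 CPM in the overexpressor and fell by 1.42 ± 0.30 on the log2 scale (adjusted p = 0.0255, and 0.18 with the summed overexpressor, edgeR). TCH2 and the calmodulin gene CAM2 were not called, at log2 changes of 0.12 and -0.037 (adjusted p = 0.758 and 0.814, edgeR). TCH2, TCH3 and CAM2 each overlap a gene on the opposite strand, with the same doubt as for XTH15. All 4 of these genes, XTH22 included, were higher in wild-type library 2 than in wild-type library 1.

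Markers of the tissues in which XTH genes are known to be expressed were summed, since seedlings were sequenced whole. Their counts stand beside 8.33% of all tested genes higher and 7.15% lower. Xylem vessel markers were higher for 5 of 6 genes, with sums of 284 and 267 CPM in the wild type and 373 and 391 CPM in the overexpressor. Markers of green tissue were higher for 4 of 6, with sums of 27780 and 25733 CPM against 34543 and 35871 CPM. Endodermis markers were lower for 3 of 5, at 183 and 190 CPM against 164 and 154 CPM. Root hair markers were higher for 1 of 8 (RHD2), at 198 and 179 CPM against 223 and 208 CPM, a share near that over all genes. With total-count scaling the root hair sums overlapped, at 205 and 191 CPM against 211 and 198 CPM. The xylem, green tissue and endodermis sums stayed apart by group with that scaling. Of the root meristem markers none of the 3 tested was called (nor any at an unadjusted p under 0.05, edgeR or DESeq2), at 2.36 and 3.64 CPM against 2.80 and 3.44 CPM. No marker was at 0 in any library. With the summed overexpressor, where 1.48% of all genes were higher and 1.31% lower, 1 xylem, 2 green tissue and 1 root hair marker were higher and no endodermis marker was called (3 were lower at an unadjusted p under 0.05, edgeR), and DESeq2 called no endodermis marker (3 at an unadjusted p under 0.05). XCP1, CESA4, CESA7, CESA8 and CASP5, which were called, overlap a gene on the opposite strand, so reads of those pairs may not be told apart. Of the clade expressed mainly in roots, XTH17, XTH18 and XTH19 stood at 1.79-fold to 2.15-fold of the wild type and XTH20 at 0.477-fold, and the part of tissue makeup in these XTH changes was not tested.

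The authors' deposited table of log2 fold changes, with 1256 genes, holds 9 XTH genes, 8 of them positive. In the authors' deposited table XTH25 stands at 2.50, XTH19 at 1.12, XTH23 at 1.09, XTH17 at 0.89, XTH18 at 0.85, XTH30 at 0.78, XTH5 at 0.78, XTH7 at 0.64 and XTH20 at -1.05. All 9 were called here in the same direction, and XTH8, XTH14, XTH15, XTH24 and XTH31 were called here without being in that table. The table was deposited with these libraries and makes the same comparison, so the shared directions are no separate support.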

How the data were processed

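Total RNA of seedlings was sequenced in 4 libraries, 2 of Col-0 (wild type) and 2 of HBI1-Ox (overexpressor), grouped and numbered from the labels. For each library the authors deposited raw read counts by gene, as whole numbers without normalization, and a table of log2 fold changes for selected genes, with no stated rule. Per the submitters' processing notes, TopHat, DESeq and the build TAIR10 were used; versions, read counter, strand setting and treatment of multiply mapped reads were not given in the sources used here. Rows of reads on no gene (13.7%, 13.7%, 13.5% and 13.2% of reads, in the order wild type 1, wild type 2, overexpressor 1, overexpressor 2) were left out.

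Genes were kept by filterByExpr (minimum count 10, minimum total 15) and TMM factors applied. The test was that of edgeR 4.0.16 under R 4.3.3 (quasi-likelihood, 2 residual degrees of freedom, biological coefficient of variation 8.16%), with Benjamini-Hochberg adjustment over all 20320 genes at 0.05. A standard error is the log2 change divided by the square root of F. The share of all genes at an unadjusted p under 0.05 was not counted, so unadjusted counts have no background. The procedure was tested on simulated data. The 12 alternatives included DESeq2 1.42.0, limma 3.58.1 (voom), leaving out each library and summing the overexpressor libraries. The deposited files hold no coordinates; gene positions, exon lengths, coding sequences and promoters came from RefSeq TAIR10.1, in which all 33 loci were found.

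The members and lists were chosen with earlier results of these data known. All XTH genes were named, with every called gene of the other pathway and touch lists and up to 5 uncalled ones of highest level. Full values were given for called XTH genes and the 3 uncalled ones of highest level; further values (XTH9, XTH16, XTH22 and XTH32) were added after they were seen.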

Additional observations from a re-analysis of the deposited data

How the results depend on the processing

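XTH17, XTH18, XTH19, XTH25 and XTH30 kept their direction and passed in all 12 alternatives. With the overexpressor libraries added up into 1 sample, XTH genes numbered 5 higher and 0 lower, against 10 and 4. Leaving out 1 library in turn gave 5 to 16 higher (5 without either overexpressor library, 16 without wild-type library 1) and 0 to 10 lower (0 without either overexpressor library, 10 without wild-type library 2); the group left with 1 library is then assumed to vary like the other. Of the other pathway genes, 5 were higher, but 0 with the overexpressor libraries summed, 1 with scaling by total counts, 3 with DESeq2, 3 with the replicate block and 0 to 11 without 1 library; 0 were lower, but 2 with total counts and 0 to 1 without 1 library. With the replicate number as a block, 11 XTH genes were higher, XTH27 among them (edgeR adjusted p = 0.0284), and 4 lower. Of all 20320 genes tested with the block, 1459 were higher and 1337 lower. No label pairs the libraries by number. Deviations of same-numbered libraries had a correlation of -0.0014. This cannot decide pairing, because the overexpressor libraries differed by little more than counting error. Without the low-count filter XTH6, XTH22 and XTH27 also passed (edgeR adjusted p = 0.0257, 0.00946 and 0.0106). Of the 25630 genes tested without the filter, 2150 were higher and 1890 lower. Directions that turned were XTH4 (-0.067 with total counts) and, without 1 library, XTH9 (-0.78 to 0.25), XTH10 (-0.040 to 0.54), XTH16 (-0.53 to 0.24), XTH21 (-0.38 to 0.15) and XTH26 (-0.51 to 0.12); the cause was not tested. Total counts gave 995 genes higher and 3494 lower in all, against 1693 and 1452 with TMM factors, and the summed overexpressor libraries 307 and 271. Counts were 1150 and 844 with DESeq2, 3516 and 3009 when wild-type library 1 was left out, 3010 and 2773 for wild-type library 2, 242 and 187 for overexpressor library 1, and 289 and 222 for overexpressor library 2. Depth limits XTH1, XTH2, XTH3 and XTH29, which had at most 3 reads in a library.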
